A study of Bos taurus with 14 samples.

Results

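The bovine microRNA bta-miR-1306 was followed in blood plasma and in blood leucocytes of the same cows on a forage diet (FD) and on a high-grain diet (HG). It is 1 of 932 microRNA names in the library files, of which 723 are bovine and 209 are human entries, some of which hold the same reads as a bovine name. The row was found by its exact name in 14 of 14 libraries, and no other name is a variant of it. The name was chosen by its measured reads: on HG its level was lower in every plasma pair and higher in every leucocyte pair. The diet values below are therefore a description of what the choice used, with no test, and nothing is supported with them.

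The animals were non-lactating, ruminally cannulated Holstein cows that first received a diet of 100% forage (0% concentrate) and then a diet with 65% concentrate, sampled in week 1 of HG. A grain load of this kind lowers rumen pH and serves as a model of subacute ruminal acidosis. Jugular EDTA blood gave 4 plasma libraries per diet (cows 1 to 4) and 3 leucocyte libraries per diet (cows 1, 3 and 4), with leucocytes taken from the buffy coat, which holds all white cells together with platelets and some erythrocytes. The diets followed each other in 1 order, so diet and time cannot be told apart. Plasma and leucocyte RNA were extracted with different kits, so sample type and kit cannot be told apart either.

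A microRNA is a short RNA that guides an Argonaute protein to messenger RNAs through its seed, the bases near its 5′ end. Most are cut from a longer transcript by the Microprocessor, in which the nuclease Drosha works with the RNA-binding protein DGCR8, and then by Dicer. The hairpin of miR-1306 lies in the DGCR8 gene itself, so the microRNA comes from a transcript that encodes a part of the machinery that makes it. Drosha and DGCR8 also cut hairpins in the DGCR8 messenger RNA, a known feedback on the Microprocessor. In plasma, microRNAs travel in vesicles, lipoproteins and Argonaute complexes that blood cells, endothelium, liver and other tissues release.

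In the deposited coordinates (build UMD3.1), the mature bta-miR-1306 of 21 bases lies on the plus strand at chr17:74987969-74987989. The RefSeq annotation of another build (ARS-UCD2.0) places the MIR1306 gene inside DGCR8. The mature sequence is not analysed here. The reads had no second assignment: the count divided over all places a read mapped to equalled the undivided count in 14 of 14 libraries.

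Plasma libraries were shallow. Reads assigned to microRNAs ranged from 376589 to 4464702 in plasma and from 21764579 to 66070770 in leucocytes, and 3 reads, the number that a count of 0 allows, would be 0.672 to 7.97 RPM in plasma and 0.0454 to 0.138 in leucocytes. The share of analysed reads assigned to microRNAs also moved with diet in plasma, at 39.3 to 58.1% on FD and 59.3 to 72.0% on HG, whereas it was 83.4 to 91.7% and 84.0 to 91.1% in leucocytes. Exact 95% binomial intervals for the share of bta-miR-1306 in its library spanned 2.71 to 11.6% of the value to either side. These intervals and floors cover counting error only.

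The reads behind bta-miR-1306 were well above these floors. In plasma on FD it had 295 reads in cow 1, 2583 in cow 2, 1351 in cow 3 and 3901 in cow 4, and on HG it had 1117, 1012, 349 and 1830 reads in the same order. In leucocytes of cows 1, 3 and 4 it had 4888, 3840 and 2106 reads on FD and 5263, 4154 and 2873 on HG. The read number itself was thus higher on HG in plasma of cow 1, whose FD library was the shallowest, and only the level per library was lower there.

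Levels are given first as CPM, reads scaled to a common library size, with libraries of a sample type aligned by the trimmed mean of M values (TMM CPM). In plasma, the TMM CPM of bta-miR-1306 on FD was 763 in cow 1, 2804 in cow 2, 1344 in cow 3 and 2489 in cow 4. On HG it was 378, 1054, 294 and 678. The highest HG library (cow 2) lay above the lowest FD library (cow 1), so the groups overlapped although each cow's value was lower on HG. With n = 4 each, the FD group had 1850 ± 959 (SD) and the HG group 601 ± 344, with coefficients of variation of 51.8% and 57.3%.

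In leucocytes, the TMM CPM on FD was 96.8 in cow 1, 83.3 in cow 3 and 96.7 in cow 4, and on HG it was 128, 127 and 106. The groups did not overlap on this scale. With n = 3 each, FD libraries had 92.3 ± 7.78 (SD) and HG libraries 120 ± 12.4. Cows differed much less in leucocytes than in plasma, with coefficients of variation of 8.43% and 10.3%.

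**Figure D1:**
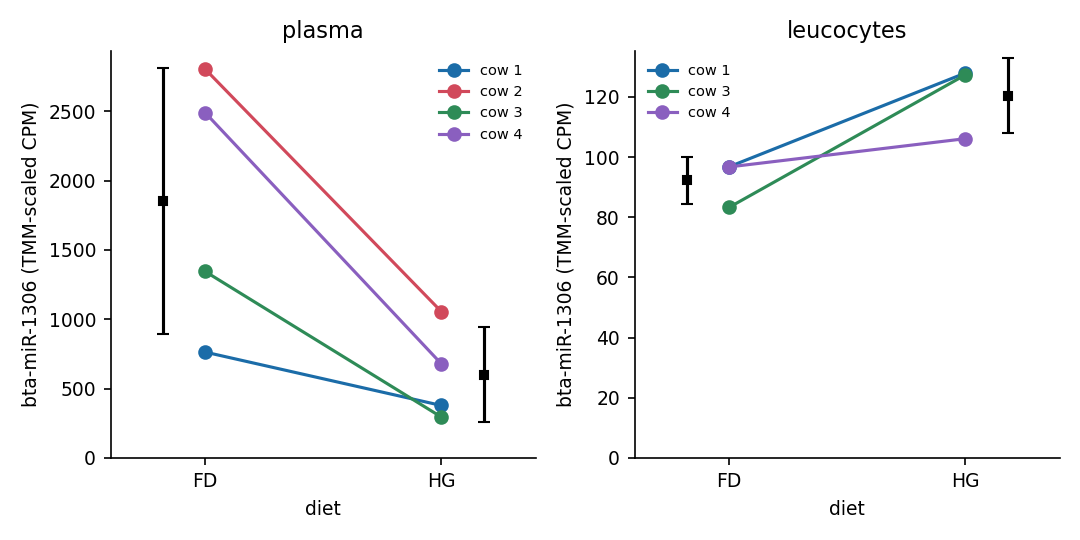
Level of bta-miR-1306 in TMM-scaled CPM on FD and HG, in plasma (left, 4 cows) and leucocytes (right, 3 cows), with separate linear axes from 0. Lines join the libraries of 1 cow and bars give mean ± SD: every plasma line runs down, from 763 to 378 in cow 1 at the least, and every leucocyte line runs up, from 96.7 to 106 in cow 4 at the least.

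The plot of levels by diet shows how unequal the changes were among cows. As log2 of HG over FD on TMM CPM, the plasma differences were -1.01 in cow 1, -1.41 in cow 2, -2.19 in cow 3 and -1.88 in cow 4 (mean -1.62 ± 0.518 SD), which is 2.02-fold to 4.57-fold lower. The leucocyte differences were 0.40 in cow 1, 0.61 in cow 3 and 0.13 in cow 4 (mean 0.38 ± 0.240 SD), which is 1.32-fold, 1.53-fold and 1.10-fold higher. The plasma difference in each of the 3 cows with both sample types was larger in size than the leucocyte difference of that cow. Cow 3 had the largest difference in both. The fit of edgeR with cow and diet gave -1.62 (SE 0.468) in plasma, among 536 names fitted, and 0.38 (SE 0.152) in leucocytes, among 779.

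Among the names read in every library of a sample type, few lay beyond bta-miR-1306 in plasma and many did in leucocytes. In plasma, 4 of 362 names (1.10%) had a lower fitted log2 difference, and the median name was at 0.04. In leucocytes, 89 of 654 names (13.6%) had a higher one, and the median name was at -0.01. Among all fitted names, 25 of 536 had a lower difference in plasma and 131 of 779 a higher one in leucocytes. A difference of this size was thus uncommon in plasma and ordinary in leucocytes, as a description of these libraries. The choice used this contrast, so the ranks are no test.

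How far the levels moved depended on the denominator. As CPM of the plain library total, plasma stood at 1009, 2307, 1033 and 1710 on FD and at 351, 1326, 417 and 709 on HG in cows 1 to 4 (1515 ± 620 and 701 ± 445, SD, n = 4). The log2 differences were then -1.52, -0.80, -1.31 and -1.27 (mean -1.22 ± 0.305 SD). Cow 1, with the smallest plasma difference on TMM CPM, had the largest on this scale, so the order of the cows was not a property of the reads alone.

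The leucocyte values on the library total were 86.1, 79.7 and 114.9 CPM on FD and 112.7, 124.0 and 122.2 on HG in cows 1, 3 and 4 (93.6 ± 18.8 and 119.7 ± 6.05, SD, n = 3). The groups overlapped here, since cow 4 on FD lay above cow 1 on HG. The log2 differences were 0.39, 0.64 and 0.09. Cow 4 had the smallest difference on this scale too.

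As a share of all analysed reads, which keeps in the denominator the reads that matched no microRNA, the plasma differences shrank to -0.90, -0.39, -1.20 and -0.46 (mean -0.74 ± 0.382 SD). This scale is the one that the share of assigned reads moves, and that share was higher on HG in plasma. Its part in the result was not tested. The leucocyte differences stayed at 0.40, 0.54 and 0.18.

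The study used miR-103 and miR-107, a pair of microRNAs from introns of pantothenate kinase genes, as references in quantitative PCR. It also measured miR-1306 by that method, after listing it from sequencing as down-regulated in plasma on HG. By PCR it describes the plasma level as relatively high on forage and greater in week 1 of HG. In leucocytes it describes a higher level on forage than on HG. The greater plasma level in week 1 of HG and the higher leucocyte level on forage are both opposite in direction to the read levels given here. Against the summed reads of bta-miR-103 and bta-miR-107, bta-miR-1306 in plasma made up 8.57, 13.4, 14.2 and 19.7% on FD and 2.90, 6.74, 3.31 and 9.28% on HG in cows 1 to 4, lower in 4 of 4. In leucocytes it made up 0.458, 0.421 and 0.612% on FD and 0.545, 0.523 and 0.526% on HG in cows 1, 3 and 4. The sums use undivided reads, so a read assigned to both reference names would count in both. The log2 differences in leucocytes were 0.25, 0.31 and -0.22, so on this scale HG gave a higher level in cows 1 and 3 and a lower one in cow 4. In plasma the references went different ways on TMM CPM. There bta-miR-107 was lower on HG in 3 of 4 cows, with a fitted log2 difference of -0.61 (SE 0.693), or -1.20 without cow 1, and bta-miR-103 was higher in 3 of 4 at 0.11 (SE 0.446). The edgeR test called neither (adjusted p = 0.947 and 0.960). Both reference microRNAs had themselves a higher TMM CPM on HG in 3 of 3 leucocyte pairs, with fitted log2 differences of 0.27 (SE 0.12) for bta-miR-103 and 0.24 (SE 0.14) for bta-miR-107. The edgeR quasi-likelihood test did not call either difference (adjusted p = 0.328 and 0.454).

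**Figure D2:**
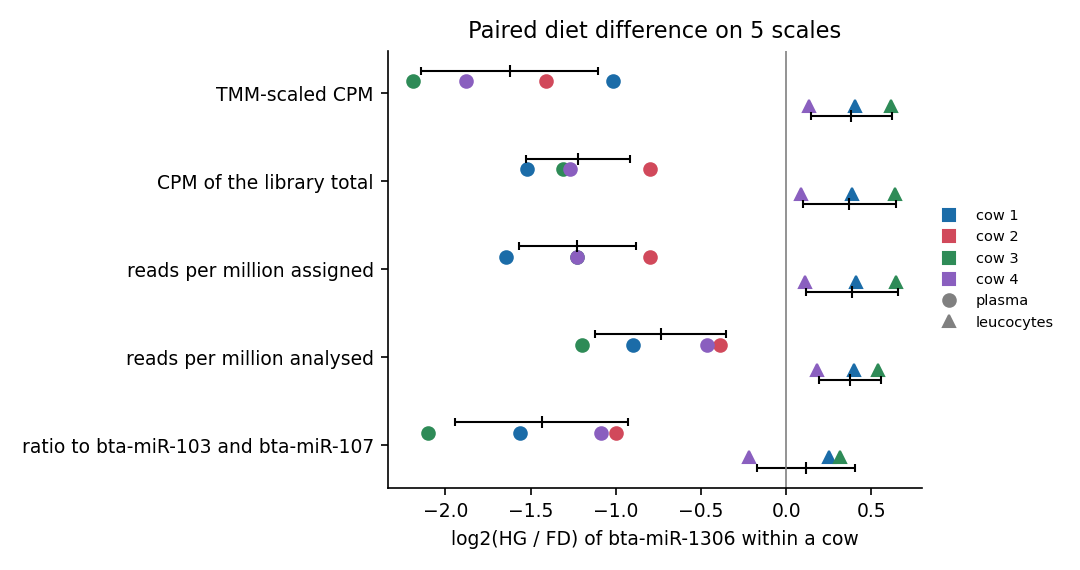
Log2 of HG over FD for bta-miR-1306 within each cow, on 5 denominators, for plasma and leucocytes; each point is 1 cow, bars give mean ± SD and the vertical line marks no difference. All plasma points lie below the line on each scale, between -2.19 and -0.39, and all leucocyte points lie above it except cow 4 at -0.22 against bta-miR-103 and bta-miR-107.

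The plot of paired differences by scale shows that the plasma direction held in all 4 cows on all 5 scales, whereas the leucocyte direction in cow 4 rested on the choice of scale. The rule used the direction, so its hold over scales of the same reads adds no independent evidence.

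The level in plasma against that in leucocytes was tested next. The choice did not use this contrast as such, but it did use how the contrast differs between diets, which raises it on FD and lowers it on HG. Nothing is therefore read from its difference between diets, and the mean over both diets, which the choice does not fix, is given as well. On FD, bta-miR-1306 made up a larger share of the microRNA reads in plasma than in leucocytes of the same cow, 11.7-fold in cow 1, 13.0-fold in cow 3 and 14.9-fold in cow 4 (CPM of the library total). On HG the ratios were 3.12, 3.37 and 5.80 in the same cows. Plasma and leucocyte libraries did not overlap on either diet on this scale. The share of all names without such overlap was not counted, so this is not read as a trait of bta-miR-1306. The mean log2 difference over all libraries was 3.95 on FD (15.4-fold) and 2.35 on HG (5.10-fold), with a p of 0.0571 each in the exact two-sided permutation test, the smallest that 4 against 3 libraries allow. This test is unpaired and ignores that cows 1, 3 and 4 gave both sample types. Averaged over both diets within each cow, which was added after seeing the data, the log2 difference was 3.15 (8.86-fold, higher in plasma in 3 of 3 cows with both), with the same p of 0.0571 in the exact permutation test. Fewer cells that release a microRNA and less of it released per cell cannot be told apart in such bulk samples, and a share of reads gives no amount per volume of blood.

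Scaled with TMM across both sample types, the fitted log2 difference of plasma over leucocytes on FD was 3.47 (SE 0.574), an 11.1-fold higher level (edgeR quasi-likelihood test, adjusted p = 0.00504). The same test called 321 of 745 names on FD (43.1%), with 129 higher in plasma (17.3%) and 192 lower (25.8%), and 95 names (12.8%) had a higher log2 difference than bta-miR-1306. With library size alone the calls split into 166 higher and 128 lower, and the difference was 4.02 (adjusted p = 0.00157).

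On HG the TMM-scaled difference was 0.46 (SE 0.441) and was not called (edgeR, adjusted p = 0.399), while 397 of 732 names were (54.2%), 119 higher (16.3%) and 278 lower (38.0%), and 223 names (30.5%) had a higher log2 difference. This call depended on the scaling. With library size alone it was 2.55 (adjusted p = 0.00385, 236 names higher and 79 lower), and with the reads of bta-miR-103 and bta-miR-107 as scale, chosen after seeing the data, it was 3.39 (adjusted p = 0.00100, 287 higher and 32 lower). The median of all names moved with the scale, from -1.21 with TMM to 0.78 with library size. Relative to that median, bta-miR-1306 was at 1.68 with TMM and between 1.67 and 1.77 over the 4 scalings, against 4.65 and 4.49 to 4.65 on FD. A block for cow, in cows 1, 3 and 4, gave 3.01 on FD (adjusted p = 0.0015, with 141 names called) and 0.01 on HG (adjusted p = 0.994).

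The place of bta-miR-1306 among the bovine names of a library needs no scaling, but it depends on how many names were read. It was taken on divided reads, which lower names whose reads are shared with another place or a human name. As bta-miR-1306 keeps all of its reads, it can rank higher than on undivided reads, for which no rank was taken. In plasma bta-miR-1306 ranked 79, 54, 77 and 58 on FD and 112, 72, 110 and 85 on HG in cows 1 to 4. In leucocytes of cows 1, 3 and 4 it ranked 108, 117 and 117 on FD and 102, 100 and 107 on HG. On FD it stood higher in the list in plasma in 3 of 3 cows. On HG it did so in cow 4 and stood lower in plasma in cows 1 and 3. The choice bears on these ranks too, so nothing is read from how they differ between diets. The lists held 289 to 380 names in plasma and 549 to 623 in leucocytes.

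The files also give the number of distinct read sequences behind each name, which counts length and end variants and mismatched reads. In plasma, bta-miR-1306 was made of 3, 11, 3 and 12 distinct sequences on FD and 7, 9, 7 and 13 on HG in cows 1 to 4. In leucocytes it was made of 63, 64 and 32 on FD and 74, 59 and 47 on HG in cows 1, 3 and 4. The 1351 plasma reads of cow 3 on FD thus came from 3 sequences, 450 reads to each, whereas leucocyte libraries had 60.0 to 77.6 reads to each on FD and 61.1 to 71.1 on HG. In plasma that number was 98.3, 235, 450 and 325 on FD and 160, 112, 49.9 and 141 on HG.

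Fewer reads give fewer distinct sequences, so each library was compared with the other names whose read number lay within 1.5-fold. In plasma the median of such names was 10.5, 21, 13 and 20.5 sequences on FD and 14.5, 20, 12.5 and 18 on HG, and bta-miR-1306 lay below it in 8 of 8 libraries. In cow 3 on FD, 0 of 36 such names had fewer. In leucocytes the medians were 60, 56 and 32 on FD and 77, 58 and 46.5 on HG, close to its own numbers. The reads carry no molecular identifiers, so reads of 1 sequence are not separate molecules.

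**Figure D3:**
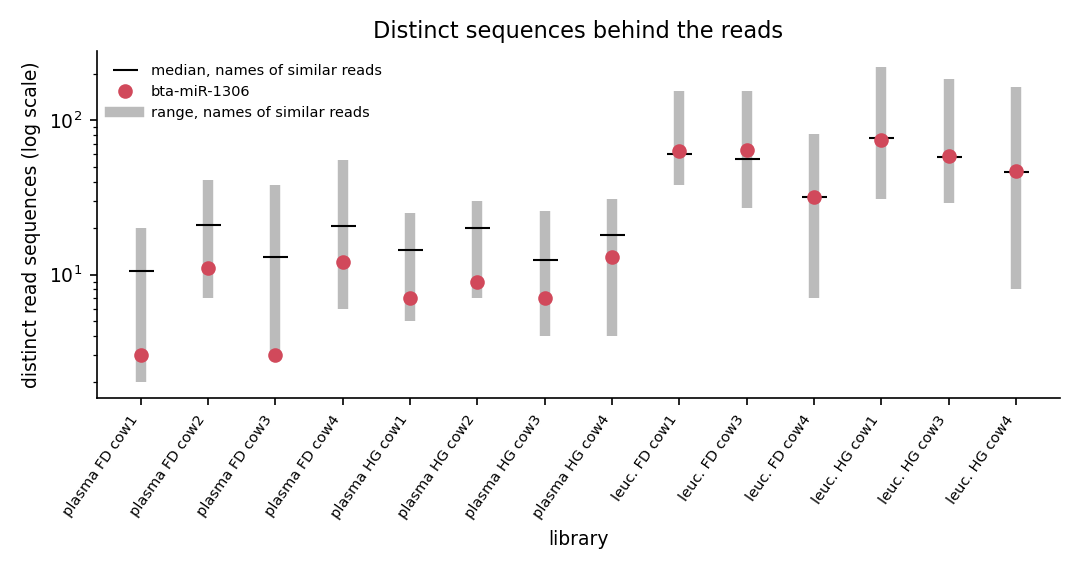
Distinct read sequences of bta-miR-1306 (red points) in each library on a log axis, with the range (grey bars) and the median (black ticks) of other names whose reads lay within 1.5-fold. The red point lies below the tick in 8 of 8 plasma libraries, at 3 against 13 in cow 3 on FD, and on or near the tick in the 6 leucocyte libraries.

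The plot of distinct sequences shows a shortfall in plasma that was smaller on HG in 3 of 4 cows. As a percentage of the median of similar names, bta-miR-1306 had 28.6, 52.4, 23.1 and 58.5% in plasma on FD and 48.3, 45, 56 and 72.2% on HG in cows 1 to 4. The choice also looked at distinct sequences, so these values are a description.

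Next, the names that share the pattern used for the choice were counted. Of 359 names with at least 2 reads in each of the 14 libraries, 14 (3.9%) were lower on HG in all 4 plasma pairs and 75 (20.9%) were higher in all 3 leucocyte pairs. Both held for 9 names (2.51%), and the mirror pattern held for 5 (1.39%), with 24 (6.69%) higher in all plasma pairs and 87 (24.2%) lower in all leucocyte pairs. The mirror names, listed after their values were seen, are bta-miR-6524, bta-miR-181c, bta-miR-135b, bta-miR-497 and bta-miR-379. Nothing is read from these shares, since the rule fixed this pattern. The 9 names are 6 bovine microRNAs, 3 of them repeated under an identical human name. The other bovine names are bta-let-7c of the let-7 family, bta-miR-92a of the miR-17-92 cluster family, the erythroid bta-miR-486, bta-miR-2285bc of a large bovine family, and bta-miR-7857-5p.

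Their paired log2 differences on TMM CPM differed in size. For bta-let-7c they were -0.52, -0.65, -1.96 and -0.42 in plasma and 0.34, 0.54 and 0.23 in leucocytes. For bta-miR-486 they were -0.99, -1.06, -1.32 and -0.71 in plasma and 0.84, 0.26 and 0.16 in leucocytes. For bta-miR-92a they were -0.06, -0.91, -1.20 and -0.48 in plasma and 0.16, 0.19 and 0.02 in leucocytes. The first plasma pair and the last leucocyte pair of bta-miR-92a were near 0, so it holds the pattern by direction alone. For bta-miR-2285bc they were -0.99, -1.26, -0.49 and -1.56 in plasma and 0.20, 0.43 and 0.22 in leucocytes. For bta-miR-7857-5p they reached -5.18 in plasma, but rested on as few as 5 reads. In 5 of the 6 bovine names the largest plasma difference was that of cow 3.

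**Figure D4:**
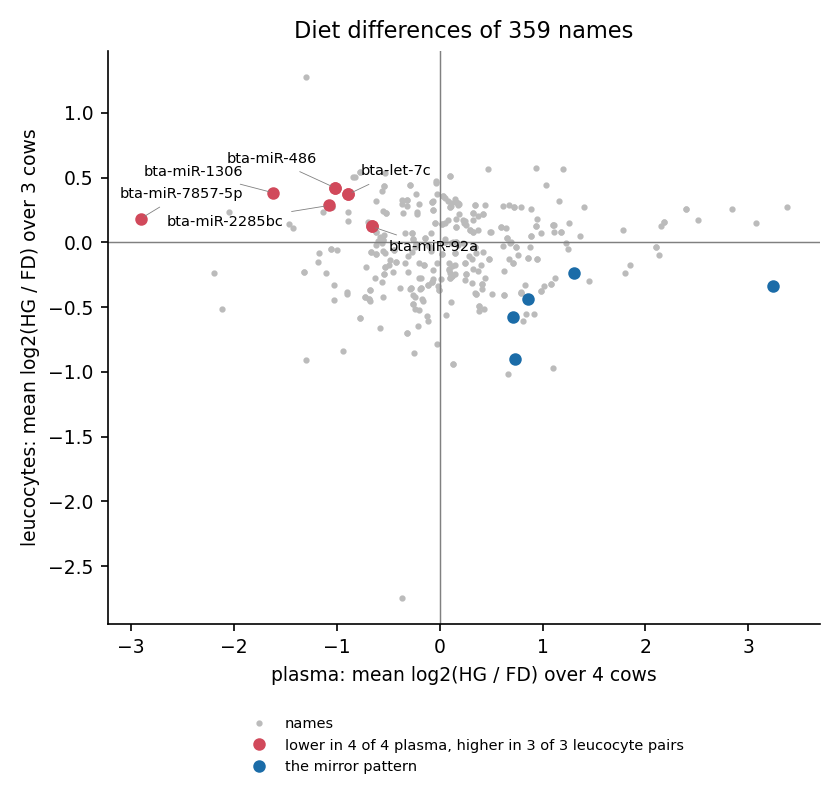
Mean log2 of HG over FD on TMM CPM in plasma (x axis, 4 cows) against leucocytes (y axis, 3 cows) for 359 names. Red points hold the pattern of bta-miR-1306 (-1.62 and 0.38) and blue points hold the mirror; red points lie at the upper left because the pattern defines that corner.

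The plot of diet differences shows bta-miR-1306 farther left than the other red points except bta-miR-7857-5p, with bta-miR-486 at a like height. The libraries of a sample type share their scaling, and points in it are no replicates.

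Profiles were then compared over 251 bovine names by Pearson's r of log2 TMM CPM, as a description over few libraries that share depth and scaling. Over the 8 plasma libraries the names most like bta-miR-1306 were bta-miR-2285bc (r = 0.928), bta-miR-92a (0.872), bta-miR-486 (0.869), bta-miR-1246 (0.825) and bta-miR-2285bf (0.787), with a median r of 0.023 over all names. Over the 6 leucocyte libraries they were bta-miR-382 (0.960), bta-miR-505 (0.912), bta-miR-151-5p (0.891), bta-miR-484 (0.858) and bta-miR-2285bc (0.845), with a median of -0.043. Over the 7 paired differences they were bta-miR-486 (0.909), bta-let-7c (0.889), bta-miR-7857-5p (0.881), bta-miR-92a (0.878) and bta-miR-151-5p (0.830), with a median of -0.027. Of these, bta-miR-2285bc was near bta-miR-1306 in both sample types, and it also holds the pattern used for the choice. The paired differences hold the contrast used for the choice. Libraries of both diets entered the r of each sample type, so those lists hold that contrast as well. Likeness to bta-miR-1306 is thus not independent of the choice.

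Next came the other microRNAs of the locus. Within 1 Mb on chromosome 17 in the deposited coordinates (UMD3.1), 3 other bovine microRNAs had reads, and bta-miR-1286 and bta-miR-3618 are not analysed here. The nearest is bta-miR-185, on the same strand at chr17:74967079-74967100, and RefSeq places its gene in TANGO2, a gene next to DGCR8 in the region that is deleted in human 22q11 syndrome. Farther off and on the other strand lie bta-miR-130b at chr17:74100589-74100610 and bta-miR-301b at chr17:74100902-74100926, which share a cluster and belong to the miR-130 family. Of these 3, 0 were called between diets in plasma or in leucocytes by edgeR. The same fits called 0 of 536 names in plasma (46 at an unadjusted p under 0.05, and 10 with DESeq2, 1.87%) and 14 of 779 in leucocytes (1.8%, and 28 with DESeq2, 3.59%).

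In plasma, bta-miR-185 had a TMM CPM of 672, 758, 1234 and 938 on FD and 486, 890, 725 and 837 on HG in cows 1 to 4, lower on HG in 3 of 4 (fitted log2 difference -0.29, SE 0.477, edgeR adjusted p = 0.947). In leucocytes of cows 1, 3 and 4 it had 2094, 1800 and 1288 on FD and 2399, 2493 and 2038 on HG, higher in 3 of 3 (0.44, SE 0.13, adjusted p = 0.128). The leucocyte difference of bta-miR-185 was thus near that of bta-miR-1306 in size, and the plasma difference was nearer 0 with groups that overlapped. With library size alone the plasma difference of bta-miR-185 was 0.12.

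The ratio of the undivided reads of bta-miR-1306 to those of bta-miR-185 within a library needs no scaling between libraries. In plasma it was 0.567, 1.85, 0.545 and 1.33 on FD and 0.388, 0.593, 0.203 and 0.405 on HG in cows 1 to 4. In leucocytes it was 0.0231, 0.0231 and 0.0376 on FD and 0.0267, 0.0255 and 0.0260 on HG in cows 1, 3 and 4. The 2 neighbours thus stood in a nearly constant ratio in the leucocyte libraries, except cow 4 on FD, and in a much higher and more variable ratio in plasma. In TMM CPM bta-miR-185 counts for less than in this ratio, since its reads are divided and those of bta-miR-1306 are not. In plasma of cow 1 on FD, bta-miR-185 had 520 reads and 672 CPM, against 295 reads and 763 CPM for bta-miR-1306.

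Plasma and leucocytes did not overlap in this ratio on either diet. Ratios of other names were not compared, so how common this is remains unknown. The mean log2 difference was 5.10 on FD (34.3-fold), 3.83 on HG (14.2-fold) and 4.47 as the mean over both diets within each cow (22.1-fold), each with a p of 0.0571 in the exact two-sided permutation test, the smallest that this design allows. Between diets, the log2 ratio differed by -0.55, -1.64, -1.42 and -1.71 in plasma (mean -1.33 ± 0.537 SD), so the lower level on HG was not shared in size by its neighbour. In leucocytes it differed by 0.21, 0.14 and -0.53 (mean -0.06 ± 0.407 SD), with no common direction. These diet differences contain the values used for the choice and have no test.

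The more distant pair went otherwise in leucocytes. There bta-miR-130b had a TMM CPM of 130, 121 and 94.0 on FD and 124, 99.3 and 83.6 on HG, lower on HG in 3 of 3 (-0.17, SE 0.14, edgeR adjusted p = 0.626). The reads of bta-miR-301b in leucocytes were 290, 254 and 82 on FD and 133, 84 and 92 on HG (fitted log2 difference -0.71, SE 0.25, adjusted p = 0.198). In plasma, bta-miR-130b had 41.4, 225, 848 and 498 on FD and 649, 215, 131 and 327 on HG, lower in 3 of 4 with cow 1 far the other way (-0.10, SE 1.14, adjusted p = 0.981). Plasma reads of bta-miR-301b were 0, 0, 72 and 214 on FD and 146, 4, 6 and 46 on HG, from at most 1 distinct sequence a library, which gives no usable difference.

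**Figure D5:**
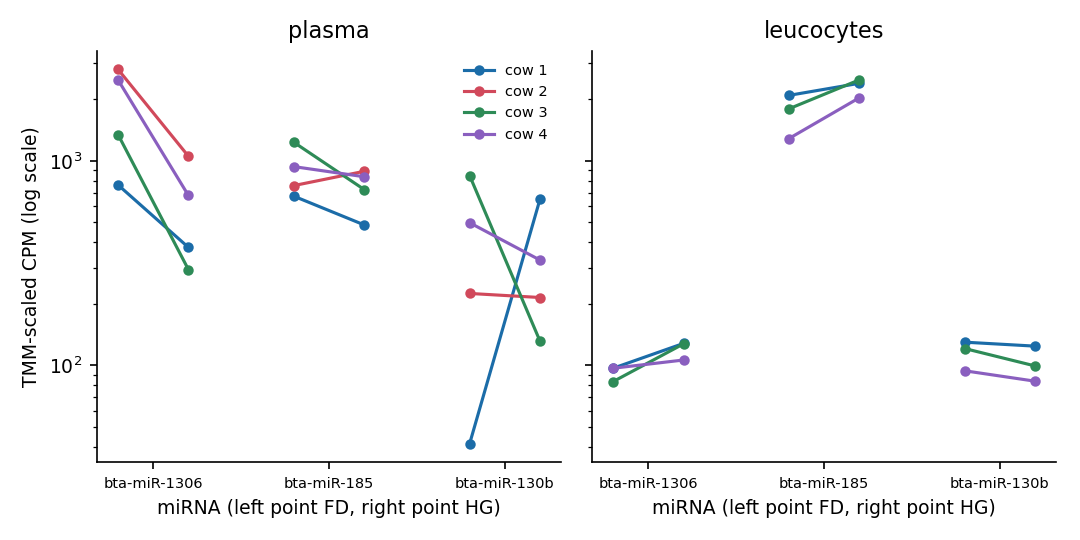
TMM CPM on a log axis for bta-miR-1306, bta-miR-185 and bta-miR-130b on FD and HG in plasma (left) and leucocytes (right), 1 point per library with lines joining the libraries of 1 cow. In leucocytes bta-miR-185 lies between 1288 and 2493, far above bta-miR-1306 (83.3 to 128), whereas in plasma on FD their points overlap on this scale of divided reads.

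The plot of locus neighbours sets levels of different microRNAs side by side on 1 axis. Such levels also depend on how shared reads are divided and on how well each end ligates in library preparation. Only the change in their distance between panels is therefore read from the plot.

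Markers of the cells that could contribute to either sample type were summed as a percentage of the assigned reads. The erythrocyte microRNAs miR-451, miR-144 and miR-486 (3 of 3 read in every library) made up 8.92 to 18.5% of plasma reads on FD and 5.66 to 17.3% on HG, lower on HG in 3 of 4 cows. In leucocytes they made up 29.8 to 40.7% and 33.1 to 42.6%, lower in 1 of 3. One of the list, bta-miR-486, also holds the pattern of bta-miR-1306. The leucocyte list (6 of 6 read) was at 2.13 to 2.73% in plasma on FD and 2.82 to 3.13% on HG, lower in 0 of 4, and at 4.04 to 4.77% and 2.99 to 4.80% in leucocytes, lower in 2 of 3. The liver microRNA miR-122 was at 0.517 to 6.17% in plasma on FD and 1.06 to 2.38% on HG, lower in 3 of 4, and at 0.002 to 0.008% in leucocytes. The endothelial and platelet microRNA miR-126 was at 0.249 to 0.522% and 0.229 to 0.543% in plasma. Members of a list did not all move alike in mean log2 of HG over FD on TMM CPM. In plasma, bta-miR-142-3p (-0.11), bta-miR-142-5p (-0.17) and bta-miR-150 (-0.10) were lower. There bta-miR-342 (0.05), bta-miR-223 (0.25) and bta-miR-155 (0.25) were higher. In leucocytes, bta-miR-144 was at -0.86, against 0.33 for bta-miR-451 and 0.42 for bta-miR-486. The part of red cells, liver or other sources in the levels of bta-miR-1306 was not tested.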

How the data were processed

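Small RNA of 8 plasma and 6 leucocyte samples was sequenced by the authors as single-end reads, demultiplexed with bcl2fastq (version 2.20 in the submitters' processing notes), trimmed and mapped with sRNAbench to UMD3.1 and miRBase. The deposited library files give, per name, undivided read counts, estimated counts divided over all mapping places, RPM and distinct sequences. The authors also deposited 1 table per sample type whose signal values are counts divided by DESeq2 size factors. Within each type, 1910 of 1910 plasma and 2404 of 2404 leucocyte values of names with at least 100 reads there lay within 1% of the divided reads times 1 factor per library.

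The divided reads were rounded and fitted with edgeR (version 4.0.16, R 4.3.3) by quasi-likelihood with TMM scaling, for names with at least 10 reads in total. Between diets cow was a block. Between sample types, within each diet, it was not. P-values were adjusted by Benjamini-Hochberg with a threshold of 0.05. The procedure was tested on simulated data. Alternatives were other scalings, no filter, undivided reads, DESeq2 (version 1.42.0), a replicate block and each cow left out.

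Groups came from the labels. Cow numbers came from the titles, matched to the study's own lists of values per cow, of which 504 of 504 plasma and 198 of 198 leucocyte values matched, and the same animals pair the samples. Deviations of same-cow libraries correlated at -0.418 to 0.313 in plasma (between cows -0.534 to 0.646) and at 0.296 to 0.526 in leucocytes (-0.447 to 0.186). In 18 pairs of libraries at most 4.28% of names had equal reads, so no library repeated another. P-values between diets rest on the spread of the differences within these animals. Those between sample types, without the block, treat libraries of the same cow as if from separate animals. Libraries were not repeated within a cow, diet and sample type, so the spread between animals includes that of library preparation.

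The microRNA and the lists used were chosen with earlier results of these data known. Named besides bta-miR-1306 were the names that share its direction in every pair, the 5 most like it by Pearson's r in each set of libraries, the microRNAs within 1 Mb, the reference microRNAs and the marker lists. Names that share its seed, and names rich in G and C, were not analysed here. The ratio to bta-miR-185 and the mean over both diets were added after seeing the data.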

Additional observations from a re-analysis of the deposited data

Results flagged for a closer look

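Diet differences of opposite direction in the 2 sample types, in every pair of each, were found for 6 bovine names that were lower in plasma and higher in leucocytes and for 5 of the mirror pattern. The plasma difference minus the leucocyte difference (mean log2 of HG over FD) was -2.01 for bta-miR-1306, -3.09 for bta-miR-7857-5p, -1.44 for bta-miR-486, -1.36 for bta-miR-2285bc, -1.26 for bta-let-7c and -0.78 for bta-miR-92a. For the mirror names it was 3.58 for bta-miR-6524, 1.64 for bta-miR-135b, 1.54 for bta-miR-379, 1.30 for bta-miR-497 and 1.29 for bta-miR-181c. These differences between sample types were not tested, since the same direction chose the names.

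Among 44 groups of 4 plasma libraries, from bta-miR-1306 and 16 other names, 3 had 1 library far from the others, where chance gives about 1 in 20 groups. For bta-miR-382, cow 1 on FD had a TMM CPM of 134 against 1.28 to 4.34 in the other cows. For bta-miR-151-5p, cow 1 on HG had 8810 against 3249 to 4039. For bta-miR-484, cow 4 on HG had 2028 against 486 to 708. No group of values of bta-miR-1306 itself stood out in this way.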

How the results depend on the processing

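The plasma diet difference of bta-miR-1306 kept its sign in 12 of 12 alternatives, from -1.83 to -1.22, with -1.83 to -1.43 when each cow was left out in turn and -1.62 with no replicate block. The leucocyte difference kept its sign in 11 of 11, with 0.30 to 0.50 when each cow was left out, and shrank to 0.12 when scaled to bta-miR-103 and bta-miR-107. The choice used both directions, so signs kept over the same reads add no evidence. The higher level in plasma on FD was called in 11 of 11 alternatives (3.01 to 4.81, adjusted p from 9.92e-08 to 0.0303; 3.07 to 3.57 with each cow left out). On HG it was called in 2 of 11, with library size alone (2.55) and with bta-miR-103 and bta-miR-107 (3.39), adjusted p from 0.00100 to 0.994 over all, and ranged from 0.12 to 1.39 with each cow left out, 1.39 being the value without cow 1. The cause was not tested beyond the shift of the median of all names. The choice raises the contrast of sample types on FD and lowers it on HG. It thus favours the call on FD, and nothing is read from how the calls differ between diets. The replicate block, in cows 1, 3 and 4, left 141 of the 321 calls in number on FD and gave 3.01 and 0.01 for bta-miR-1306 on FD and HG. It changed no call of bta-miR-1306. With each cow left out the calls ranged from 131 (without cow 3) to 289 on FD, with 204 without cow 1, and from 258 (without cow 1) to 364 on HG. The 9 names of the shared pattern became 5 with library size alone and 9 to 31 with each cow left out, 31 without cow 1. For the neighbours and the reference microRNAs, 100 of 105 alternatives stayed within the spread between replicates. That spread was wide in plasma, so the count does not show stable values there. The plasma difference of bta-miR-301b was -1.97 without cow 1 and 2.54 without cow 3, and that of bta-miR-130b was -1.09 and 0.86. Depth was lowest in plasma of cow 1 on FD, with 376589 assigned reads.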
